A study of Mus musculus with 20 samples.

Results

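Messenger RNA of the subunits of the glutamate, GABA and glycine receptors was measured by polyA RNA sequencing in mouse retina at a young and an old age, in untreated animals and in animals given NACET. The genes were chosen by a rule on symbols that uses no values, though earlier results of these data were known. By this rule, 51 of the 35006 genes counted encode a subunit of an AMPA, kainate, NMDA or delta glutamate receptor, a metabotropic glutamate receptor other than Grm6, a GABA-A or GABA-B receptor, or a glycine receptor. NACET (N-acetyl-L-cysteine ethyl ester) is a cell-permeable form of cysteine, given at 50 mg/kg per day for 5 days in the drinking water. All 20 mice were C57BL/6J, an inbred strain with no transgene named in the labels, with 1 library per mouse. The 4 young controls were 119 days old and the 4 old controls 668 days. Of the 6 young NACET mice, 4 were 129 days old and 2 were 119 days by their titles, of which 1 carries a batch tag of 129 days. The 6 old NACET mice were 668, 581 or 574 days old, with 2 mice at each age. By the labels, 2 mice of each young group were female and all other mice male, whereas the methods of the study describe males.

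Glutamate is the transmitter of photoreceptors, bipolar cells and ganglion cells, and GABA and glycine are the transmitters of most amacrine cells. Ionotropic receptors are ion channels built from several subunits, so the subunits a cell makes set the kinetics and drug sensitivity of its synapses, whereas metabotropic glutamate receptors and the GABA-B receptor act through G proteins. OFF bipolar cells receive photoreceptor input through AMPA and kainate receptors, ganglion and amacrine cells carry NMDA receptors, and rho subunits form the slow GABA receptors of bipolar cell terminals.

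Libraries held 17.7 to 31.1 M gene counts (M, 1e+06 counts), of which the 51 genes took 0.149% to 0.199%. The tissue went with its label: the summed level of 6 rod markers was 60900 to 92700 CPM (counts per 1e+06 gene counts) over the 20 libraries. Several libraries stood apart. Old control replicate 4, labelled male, had 59555 Xist counts and 1 count over the Y-linked genes. Summed corneal epithelium markers (Krt5, Krt12, Krt14, Krt15, Dsp) reached 402 CPM in old control replicate 2 and 383 CPM in young NACET replicate 4, against 4.31 to 12.5 CPM in young controls, and summed lens markers reached 6100 CPM in old NACET replicate 1. In whole retina, fewer cells of a type and less RNA per cell cannot be told apart.

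The upstream sequence of 4 subunit genes is shown because their calls differ in kind. Grin2d was called lower with age under NACET in the main fit and all 23 alternatives, Grin1 and Gabra4 were called in opposite directions in aging controls, and Gabrr2 was the member called under NACET. Each run is the 250 bases before the annotated RefSeq start, 5′ to 3′ on the strand of the gene (GRCm38.p6). Capitals mark matches on either strand to the core of the antioxidant response element (TGACNNNGC), to which NRF2 binds, or to the GC box (GGGCGG), to which SP1 binds, and the remaining motif searched, the cyclic AMP response element (TGACGTCA), had no match in the members.
Grin2d (chr7:45866682-45866931, minus strand): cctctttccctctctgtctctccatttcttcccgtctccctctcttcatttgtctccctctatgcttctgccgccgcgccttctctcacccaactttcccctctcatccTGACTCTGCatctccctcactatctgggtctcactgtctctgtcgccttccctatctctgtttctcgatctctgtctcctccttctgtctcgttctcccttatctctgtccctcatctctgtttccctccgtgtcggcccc
Grin1 (chr2:25319188-25319437, minus strand): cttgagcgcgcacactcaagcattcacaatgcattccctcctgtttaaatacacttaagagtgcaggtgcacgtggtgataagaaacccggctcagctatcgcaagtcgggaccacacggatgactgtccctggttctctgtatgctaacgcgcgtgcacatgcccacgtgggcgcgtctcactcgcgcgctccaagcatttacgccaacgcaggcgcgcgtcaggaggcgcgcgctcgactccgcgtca
Gabra4 (chr5:71658309-71658558, minus strand): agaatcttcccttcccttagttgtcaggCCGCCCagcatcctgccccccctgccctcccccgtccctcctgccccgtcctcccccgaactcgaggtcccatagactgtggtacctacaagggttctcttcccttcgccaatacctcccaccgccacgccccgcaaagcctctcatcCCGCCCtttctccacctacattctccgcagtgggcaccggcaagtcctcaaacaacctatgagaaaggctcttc
Gabrr2 (chr4:33062862-33063111, plus strand): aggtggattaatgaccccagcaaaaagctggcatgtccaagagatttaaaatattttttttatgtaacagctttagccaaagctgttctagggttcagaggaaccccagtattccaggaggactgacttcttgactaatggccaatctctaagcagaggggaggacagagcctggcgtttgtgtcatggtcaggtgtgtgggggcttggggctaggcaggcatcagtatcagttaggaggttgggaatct

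A promoter entry was found for 35 of the 51 genes. These genes have 42 windows, since some have more than 1 annotated start. The antioxidant element letters were in 4 of the 42 windows (9.52%), those of Gabrb2, Gabrq, Grin2d and Grin3b, and in 10.2% of all 32851 windows of this length. The GC box was in 21 of the 42 windows (50.0%), against 32.7% of all windows, and the median GC content was 58.8% in the members' windows against 52.4% in all. The cyclic AMP element was in 0 of the members' windows and in 1.55% of all windows. The Gabra4 run holds the GC box letters on the opposite strand, and the Grin1 and Gabrr2 runs hold none of the motifs. Of all 6 called members, 3 have the GC box: Gabra4, and also Gabra2 and Grik3, whose runs are not printed. A match is a description of letters and not evidence of binding.

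Levels were compared between genes as CPM per kb of annotated exon, and a level below is the mean over 20 libraries. GABA-A receptor subunits made up 42.3% of the summed level of the members, ionotropic glutamate receptor subunits 32.3%, GABA-B subunits 10.4%, glycine receptor subunits 9.6% and metabotropic glutamate receptors 5.37%. These shares moved little between libraries: that of GABA-A subunits ranged from 39.7% to 44.2%. In CPM, 3 members had a mean above 100, 32 lay from 10 to 100, 13 from 1 to 10 and 3 below 1. The coefficient of variation was taken within each of the 4 groups, and the median of the groups was kept for each tested member. Its median over these members was 10.9%, from 5.64% for Grm8 to 28.2% for Grin3b.

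By all exons, the subunit at the highest level was Gria2, which makes AMPA receptors nearly impermeable to calcium, with 28.1 CPM per kb. It took 49.6% ± 2.47 (SD, n = 4) of the AMPA subunit level in young controls and 52.2% ± 1.52 (SD, n = 4) in old controls. Next came the neighbouring rho genes Gabrr1 and Gabrr2 on chromosome 4, both with 27.5 CPM per kb, then Gabbr1, an obligate part of the GABA-B receptor, with 24.8 CPM per kb, and Glrb, the glycine receptor subunit that binds gephyrin, with 20.3 CPM per kb. Divided by the longest transcript, the order turned, with Gabbr1 at 36.8, Gabrr2 at 30.0 and Gria2 at 28.1 CPM per kb. The most abundant kainate subunit was Grik5 with 44.9% of its family, beside Grik1 with 43.9%, and this order turned when levels were divided by the longest transcript in place of all exons. Grid1, Grm8, Gabrd and Glra1 led the delta, metabotropic, other GABA-A and glycine alpha groups. The lead of Glra1 was small, at 36.3% of its family beside 32.5% for Glra2. In CPM, without division by length, Glra2 was higher, at 14.0 against 12.0. In the NMDA family the obligate subunit Grin1 took 48.5% of the level, or 63.7% by the longest transcript, and Grin2d was the leading Grin2 subunit in all 4 groups, with mean shares of the Grin2 level from 51.8% to 60.8%.

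The members at the bottom were GABA-A subunits that no comparison tested. Gabra6, a subunit of cerebellar granule cells, had 0 counts of 436 M in 20 libraries, which allows up to 0.00688 CPM over all libraries. Gabrp had 1 count in 1 library, a pooled level of 0.00229 CPM (95% exact interval 5.81e-05 to 0.0128 CPM). Gabre had 150 counts, 2 to 16 in each library, or 0.344 CPM (95% exact interval 0.291 to 0.404 CPM).

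**Figure D1:**
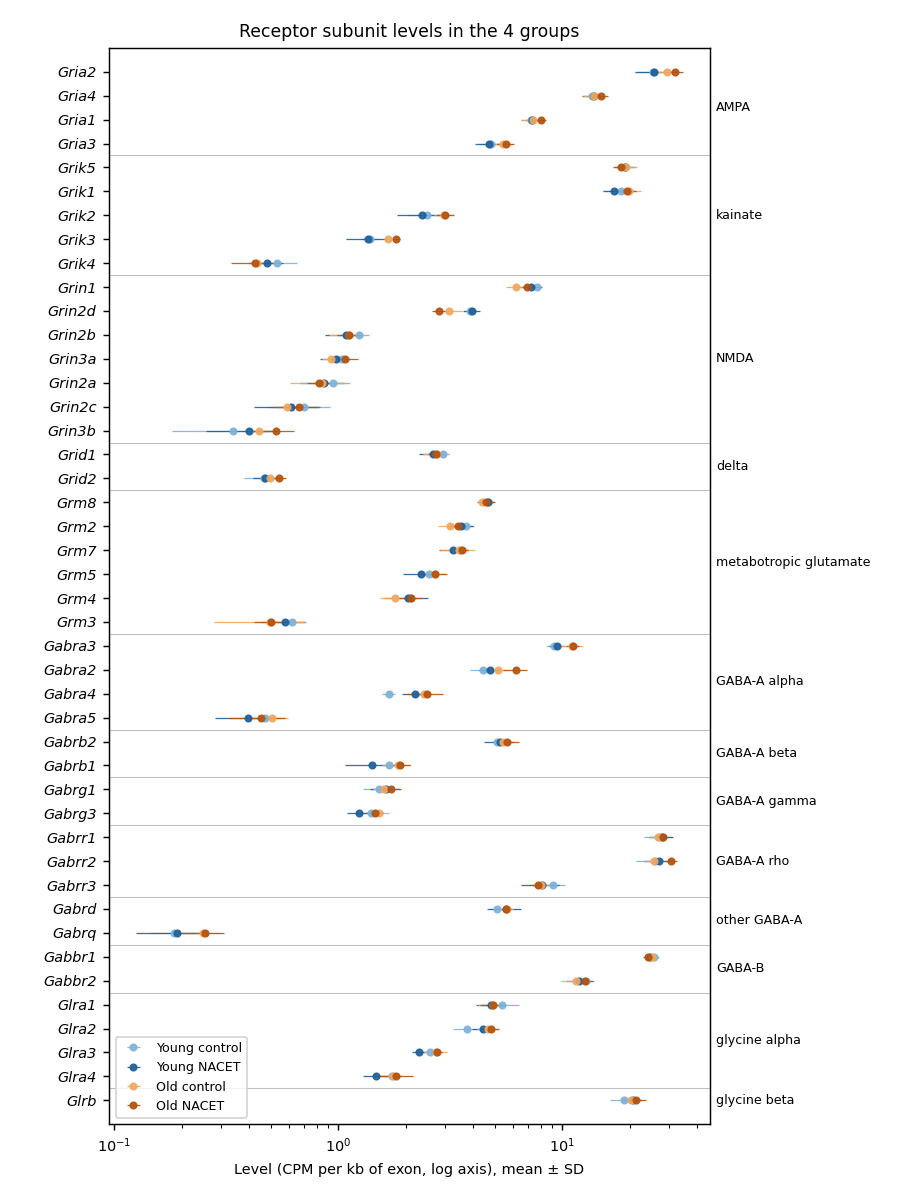
Level of 44 of the 48 tested subunit genes, as CPM per kb of exon on a log axis, with 1 point per group for the mean and a bar for the SD (n = 4 or 6), ordered by family. Group means run from 0.185 CPM per kb for Gabrq in young controls to 31.9 CPM per kb for Gria2 in old NACET mice. The 4 groups of a gene lie close together beside the distance between genes.

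Which subunits change with age in the untreated retina was asked by setting old against young controls. Of the 48 members tested, 2 were called at an adjusted p under 0.05 (edgeR quasi-likelihood test with Benjamini-Hochberg adjustment over all genes): Grin1 was lower and Gabra4 higher in old mice. Over all 16484 genes tested, 1.42% were called. At an unadjusted p under 0.05 there were 10 members (20.8%), beside 16.3% of all genes. Of these, 4 were higher, where 9.06% of all genes were, and 6 lower, where 7.24% of all genes were. The members' median log2 change was -0.0241, beside -0.00677 over all genes, with 22 members higher and 26 lower. It was 0.0509, beside -0.00508 over all genes, without old control replicates 2 and 4, a fit added after seeing the data.

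Grin1 (2: 25146701 to 25174707, mm9, minus strand, protein-coding), without which no NMDA receptor forms, had 72.1, 79.5, 74.8 and 71.1 CPM in young controls and 68.6, 54.3, 60.6 and 57.6 CPM in old controls. Every old library was below every young library. The log2 change was -0.35 (SE 0.07, edgeR adjusted p = 0.0235). The call was lost without young control replicate 2 or 3 or without old control replicate 2, 3 or 4, with adjusted p from 0.0629 to 0.0896 (0.0784 without old control replicate 2, 0.0896 without replicate 4), and in labelled males only (adjusted p = 0.115), and the change stayed between -0.39 and -0.27 over 19 alternatives. Of its exon bases, 13.5% are shared with E130003G02Rik on the other strand, a gene with 1.75 to 4.44 CPM, and the counting ignored strand. In the counting mode the study states, a read wholly within bases shared between genes goes to neither.

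The other NMDA subunits were described in the same fit. Grin2d (7: 53087253 to 53126298, mm9, minus strand), which gives receptors with slow decay and weak magnesium block, had 22.9, 21.0, 24.1 and 22.3 CPM in young controls and 20.3, 18.2, 14.7 and 19.8 CPM in old controls. The groups did not overlap, and the log2 change was -0.35 (SE 0.10, edgeR adjusted p = 0.114), which passed the threshold with DESeq2 (adjusted p = 0.0325) and in the fit of all 4 groups (adjusted p = 0.0294). Grin3a, a subunit that lowers calcium entry, had a log2 change of -0.21 (SE 0.09, unadjusted p = 0.0308). Of the 7 NMDA subunits, 6 had a change below 0, with a median of -0.22, and the exception was Grin3b. Grin3b shares 32.1% of its exon bases with ORF61 on the other strand, a gene at 95.8 to 119 CPM. By the same counting mode, reads wholly within the shared bases were counted for neither gene.

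Among the 7 metabotropic receptors, 6 had values below 0 and none was called, with a median log2 change of -0.29. Grm2, a presynaptic receptor that starburst amacrine cells are known to make, and Grm4, another receptor coupled to Gi, changed by -0.29 each (SE 0.10 and 0.11, adjusted p = 0.202 and 0.214).

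Gabra4 (5: 71960973 to 72049547, mm9, minus strand), an alpha subunit found with delta in extrasynaptic receptors, had 7.37, 6.28, 7.23 and 6.88 CPM in young controls and 10.7, 9.14, 10.2 and 9.68 CPM in old controls. Each old library was above each young library. The log2 change was 0.46 (SE 0.10, edgeR adjusted p = 0.0448), which stayed between 0.41 and 0.52 over 19 alternatives. The call was lost without any 1 of 7 libraries, with an adjusted p of 0.115 without old control replicate 4 and 0.0896 without old control replicate 2, and of the fits that left out a single library only that without young control replicate 1 kept it (adjusted p = 0.0255). In labelled males only the adjusted p was 0.195.

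Of the 5 GABA-A alpha subunits tested, 4 were above 0 in old controls. Gabra3 changed by 0.21 (SE 0.08, adjusted p = 0.227) and Gabra2 by 0.18 (SE 0.10, adjusted p = 0.402). As a share of the summed alpha level, Gabra4 took 4.07% to 5.02% in young controls and 6.22% to 6.54% in old controls, ranges that do not overlap. Gabra2, Gabra4, Gabrb1 and Gabrg1 lie side by side on chromosome 5, and Gabrb1 and Gabrg1 had log2 changes of 0.08 and 0.02.

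Grik3, a kainate subunit, had 12.2, 14.0, 12.0 and 11.3 CPM in young controls and 15.3, 14.7, 14.6 and 14.8 CPM in old controls. The groups did not overlap, with a log2 change of 0.22 (SE 0.08, adjusted p = 0.223). Glra2, the glycine receptor subunit abundant in amacrine cells, changed by 0.26 (SE 0.11, adjusted p = 0.260), and its ranges of 10.0 to 13.6 CPM and 13.1 to 16.8 CPM overlap.

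**Figure D2:**
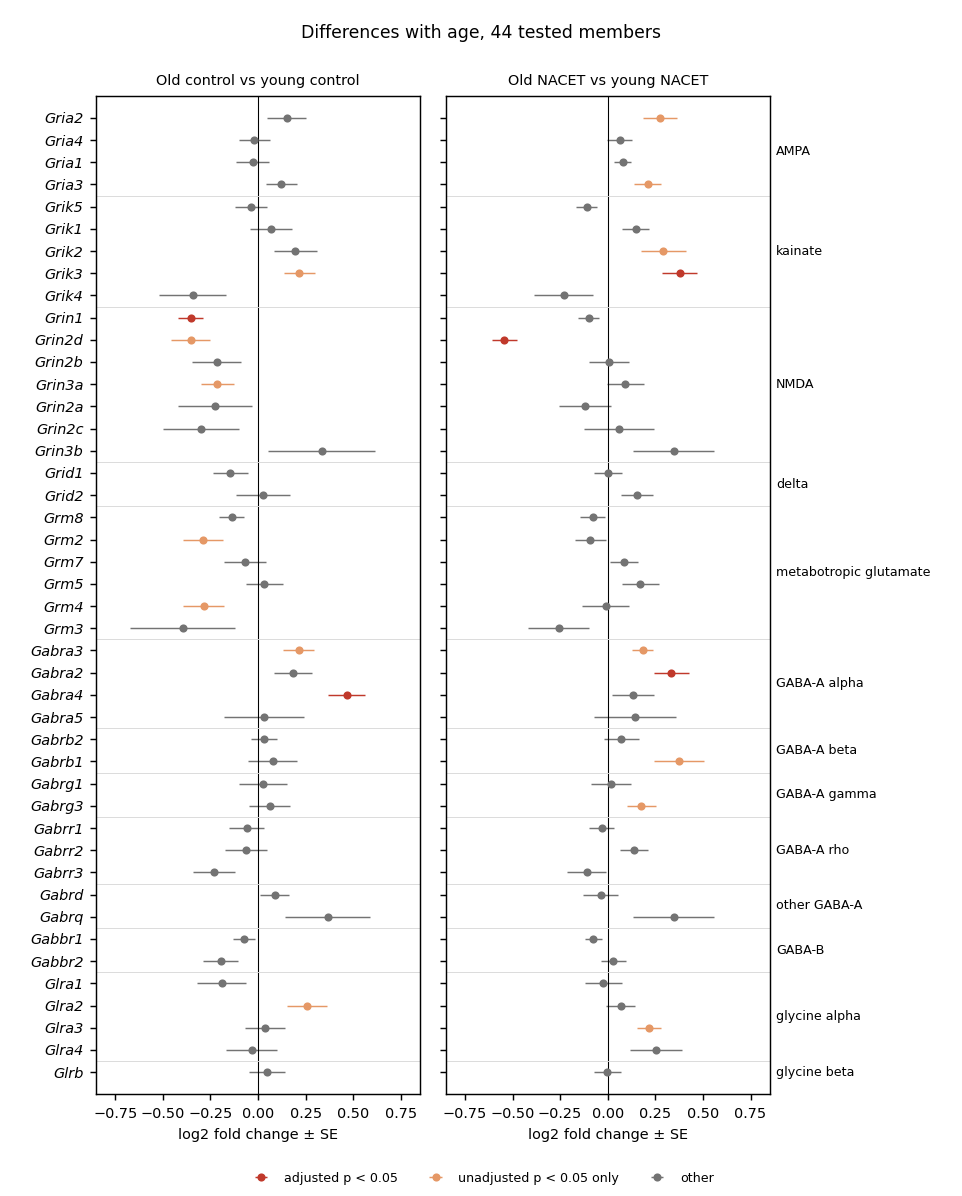
Log2 fold change of old against young controls (left) and of old against young NACET mice (right) for 44 of the 48 tested members, with bars for the SE, points coloured by their p. Grin1 and Gabra4 are called on the left, and Grin2d, Grik3 and Gabra2 on the right.

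**Figure D3:**
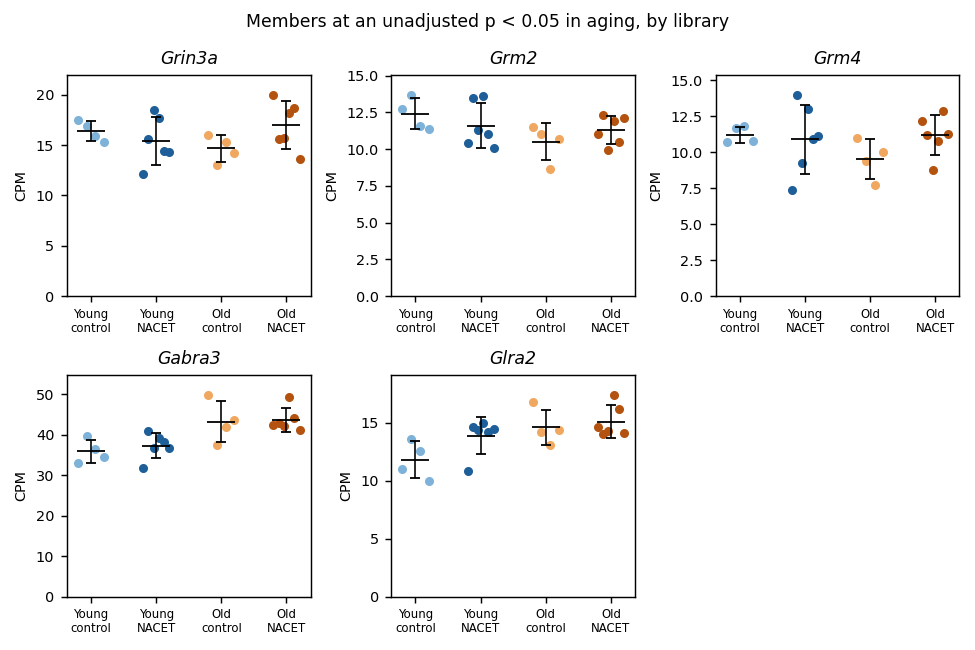
CPM of 5 further members at an unadjusted p under 0.05 in aging controls, with 1 point per library and a line and bar for the mean and SD of each group (n = 4 or 6). Grin3a, Grm2 and Grm4 have lower means in old than in young controls, and Gabra3 and Glra2 higher means.

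Partners of the receptors and markers of retinal cells were counted in the same fit. Of 31 auxiliary and scaffold genes of glutamate receptors, 1 was called: Nptx1, a secreted pentraxin that clusters AMPA receptors, which fell by 0.29 on the log2 scale (SE 0.06, edgeR adjusted p = 0.0261). None of the 9 tested scaffold and auxiliary genes of GABA and glycine receptors and none of 18 genes of transmitter synthesis and transport was called, with 2 of each at an unadjusted p under 0.05. The ganglion cell markers (Rbpms, Pou4f1, Pou4f2, Sncg, Nefl, Nefm and Thy1) were below 0 in 7 of 7, with a median log2 change of -0.29 and 4 at an unadjusted p under 0.05, none called. Their summed level was 801 to 1050 CPM in young and 745 to 967 CPM in old controls. The 6 amacrine markers had a median of 0.02, and the 6 bipolar markers a median of -0.05. Rod markers were below 0 in 6 of 6 (median -0.17), and microglia markers above 0 in 5 of 5 (median 0.35). Pigment epithelium markers, with a summed level of 31.7 to 162 CPM in young and 90.3 to 197 CPM in old controls, had a median of 0.96, and the 4 tested corneal markers a median of 3.80. The part of these marker differences in the members' values was not tested.

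Old mice given NACET were set against old controls to ask what the treatment changed in the old retina. The fit called 1 of 48 members, Gabrr2, which was higher under NACET, and 0.543% of the 16562 genes tested were called. At an unadjusted p under 0.05 there were 3 members (6.25%), all higher, beside 14.4% of all genes. The members' median log2 change was 0.0433, beside 0.00205 over all genes, with 36 higher and 12 lower. Without old control replicates 2 and 4, a fit added after seeing the data, this median was -0.0135, beside 0.00234 over all genes. These old controls are also the old group of the aging comparison, so a library that is low there is low in both.

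Gabrr2 (4: 33149974 to 33182840, mm9, plus strand), a rho subunit of bipolar cell terminals, had 61.6, 50.2, 51.9 and 52.2 CPM in old controls, and its lowest, median and highest values under NACET were 60.5, 64.1 and 68.9 CPM. Old control replicate 1 lay within the NACET range, and the other controls lay below it. The log2 change was 0.25 (SE 0.05, edgeR adjusted p = 0.0490). It stayed between 0.20 and 0.30 over 21 alternatives but was called in 5 of them, with an adjusted p of 0.171 without old control replicate 2, 0.122 without old control replicate 4 and 0.0727 without old NACET replicate 1. Of the fits that left out a single library, only that without old control replicate 1 kept the call (adjusted p = 0.0257). The old controls were all 668 days old, and against the 2 NACET mice of that age the change was 0.24 (adjusted p = 0.532). Gabrr1, the neighbouring gene on chromosome 4, and Gabrr3, the remaining rho gene, were not called. Gabrr2 took 41.4% to 42.8% of the rho level in old controls and 42.7% to 48.5% under NACET.

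The other members at an unadjusted p under 0.05 were NMDA and GABA-A subunits. Grin1 had 54.3 to 68.6 CPM in old controls and a lowest, median and highest value of 62.0, 68.8 and 72.8 CPM under NACET, with 4 of 6 NACET libraries above every control. Its log2 change was 0.16 (SE 0.05, adjusted p = 0.170). Gabra2, which mediates fast inhibition, changed by 0.26 (SE 0.10, adjusted p = 0.233).

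Of the remaining members, Grin3a, Grm4 and Grik3 had the smallest p-values among those above 0, with log2 changes of 0.21, 0.22 and 0.12 (adjusted p = 0.354, 0.364 and 0.365). The 6 Grik3 values under NACET, 15.4 to 16.9 CPM, were all above the controls at 14.6 to 15.3 CPM. Grin2d had the smallest p among members below 0, with a log2 change of -0.16 (SE 0.09, adjusted p = 0.397), followed by Gabbr1, Grik5, Gabrg3 and Gabra5 with adjusted p from 0.598 to 0.805. All 7 metabotropic receptors and all 4 AMPA subunits had values above 0, with medians of 0.06 and 0.10, and none was called.

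Of the partner genes, none was called under NACET in old mice. Those with the smallest p were Slc6a9, a glycine transporter, Dlg1, a scaffold protein, and Glul, glutamine synthetase, with log2 changes of 0.16, 0.17 and 0.14 (adjusted p = 0.135, 0.139 and 0.163). Beside these values, ganglion cell markers were above 0 in 7 of 7 (median 0.17), amacrine markers in 6 of 6 (median 0.12), while pigment epithelium markers were below 0 in 5 of 5 (median -0.76, none called). The 4 tested corneal markers had a median of -4.61, and Krt5, Krt12 and Dsp were called lower (edgeR adjusted p from 0.0456 to 0.0489). Cone markers had a median of -0.08, and Arr3, cone arrestin, was called higher, at 0.41 on the log2 scale (SE 0.08, edgeR adjusted p = 0.0456). The cone markers Opn1sw and Pde6h went the other way, at -0.38 and -0.24 (edgeR adjusted p = 0.135 and 0.167), and were not called. Summed ganglion cell markers were 745 to 967 CPM in old controls and 815 to 1100 CPM under NACET, and summed amacrine markers 730 to 866 and 780 to 963 CPM. Their part in the members' values was not tested.

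The comparison of young NACET with young control mice called 0 of 48 members, and 0.0% of the 16588 genes tested. At an unadjusted p under 0.05 there were 2 members (4.17%), beside 4.36% of all genes. DESeq2 also called 0 members, with 2 at an unadjusted p under 0.05. The members' median log2 change was -0.0581, beside -0.00451 over all genes, with 17 higher and 31 lower.

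Gabra4 had 6.28 to 7.37 CPM in young controls and a lowest, median and highest value of 7.59, 8.89 and 10.5 CPM under NACET. Every NACET library was above every control, with a log2 change of 0.37 (SE 0.11, unadjusted p = 0.00358, edgeR adjusted p = 1.00). The 4 young controls are the same libraries that lay low in the aging comparison. Glra2 had a log2 change of 0.22 (SE 0.10, unadjusted p = 0.0443 in edgeR, adjusted p = 1.00), followed by Glrb, Gabra2 and Gabrd at 0.10 to 0.11.

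The members below 0 with the smallest p were Grid1, Glra3, Glra4, Gabrg3 and Gabrb1, with log2 changes from -0.27 to -0.16 and unadjusted edgeR p from 0.0712 to 0.0980. Gabrb1 turned to 0.0889 with the batch tag as a covariate, and Glrb to -0.0554 in labelled males only. All 7 metabotropic receptors and all 5 kainate subunits were below 0, with medians of -0.11 and -0.08. Corneal and pigment epithelium markers had medians of 3.95 and 0.80 in this comparison, and ganglion cell markers a median of -0.01.

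**Figure D4:**
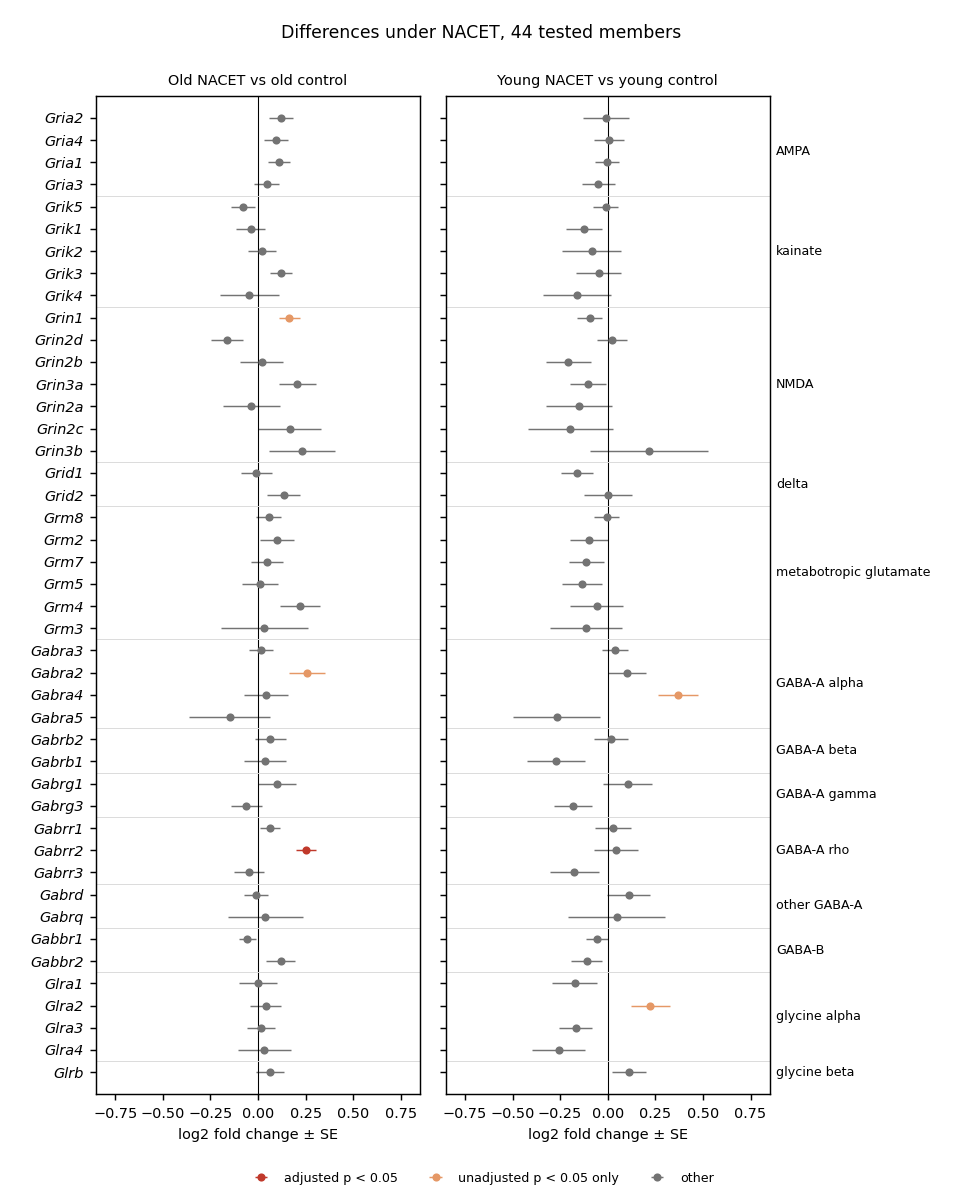
Log2 fold change of NACET against control in old mice (left) and in young mice (right) for 44 of the 48 tested members, with bars for the SE, points coloured by their p. Gabrr2 on the left is the single call, and Gabra4 and Glra2 have an unadjusted p under 0.05 on the right.

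The comparison of old with young mice under NACET called 3 of 48 members, Grin2d lower and Grik3 and Gabra2 higher in old mice, and 4.88% of the 16276 genes tested. At an unadjusted p under 0.05 there were 10 members (20.8%), beside 21.1% of all genes. Of these, 9 were higher, where 10.4% of all genes were, and 1 was lower, where 10.7% of all genes were. The members' median log2 change was 0.0659, beside -0.00129 over all genes, with 31 higher and 17 lower.

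Grin2d had a lowest, median and highest value of 21.3, 22.6 and 27.1 CPM in young NACET mice and of 14.8, 16.2 and 17.9 CPM in old NACET mice. All 6 old libraries were below all 6 young libraries. The log2 change was -0.54 (SE 0.06, edgeR adjusted p = 9.23e-05). It was called in 23 of 23 alternatives, with changes from -0.63 to -0.51 and adjusted p up to 0.0135, the last in the fit that kept only the 2 old NACET mice of 668 days. The share of Grin2d in the Grin2 level was 57.2% to 67.6% in young and 48.9% to 53.9% in old NACET mice, and those of Grin2a and Grin2b overlapped between these groups. The antioxidant element letters marked in the upstream run of Grin2d are found in 10.2% of all windows. Under NACET the log2 change of Grin2d was 0.02 in young and -0.16 in old mice, neither called. A part of the motif in these values was not tested.

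Grik3 had a lowest, median and highest value of 8.74, 11.7 and 16.0 CPM in young NACET mice and of 15.4, 16.3 and 16.9 CPM in old NACET mice. Only young NACET replicate 4 reached into the old range. The log2 change was 0.38 (SE 0.09, edgeR adjusted p = 0.0262), and 7 of 23 alternatives lost the call, among them labelled males only (adjusted p = 0.0897) and the fits without young NACET replicate 5 or old NACET replicate 3 or 4 (adjusted p from 0.0548 to 0.0610). Gabra2 had 9.33, 11.6 and 12.6 CPM in young and 12.7, 15.0 and 17.4 CPM in old NACET mice. Its groups just failed to overlap, the log2 change was 0.33 (SE 0.09, edgeR adjusted p = 0.0457), and 11 of 23 alternatives lost the call, among them the fits without young NACET replicate 1, 3, 4 or 6 or old NACET replicate 1, 3, 4 or 5 (adjusted p from 0.0554 to 0.106).

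The next members higher in old NACET mice were Glra3 (log2 change 0.22, adjusted p = 0.0551), Gabra3 (0.18, adjusted p = 0.0619) and Gria2 (0.28, adjusted p = 0.0856). Gabra3 and Gria2 were called with DESeq2, which called 5 members. Lower values with the smallest p after Grin2d were those of Grik5, Grin1, Gabbr1 and Grm3, with adjusted p from 0.256 to 0.378. All 4 AMPA subunits were above 0, with a median of 0.15, and among NMDA subunits 4 were above and 3 below 0. No partner gene was called, and those with the smallest p were Slc1a2, a glutamate transporter, at -0.21, Cacng7, an AMPA receptor auxiliary subunit, at -0.19, and Slc17a7, the vesicular glutamate transporter of photoreceptors, at -0.30, with adjusted p of 0.0643, 0.0652 and 0.0716. Rod markers were below 0 in 6 of 6 (median -0.19), with 1 called lower. Cone markers were below 0 in 5 of 5 (median -0.21), with Opn1mw and Gnat2 called lower at -0.57 and -0.28. Microglia markers were above 0 in 5 of 5 (median 0.47), with Cx3cr1 and Tmem119 called higher at 0.85 and 0.65. Pigment epithelium markers were below 0 in 5 of 5 (median -0.80), with Ttr called lower at -0.92. Ganglion cell markers had a median of -0.13. The corneal markers had a median of -4.66, and all 4 tested (Krt5, Krt12, Krt15 and Dsp) were called lower. The part of these markers in the members' values was not tested.

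**Figure D5:**
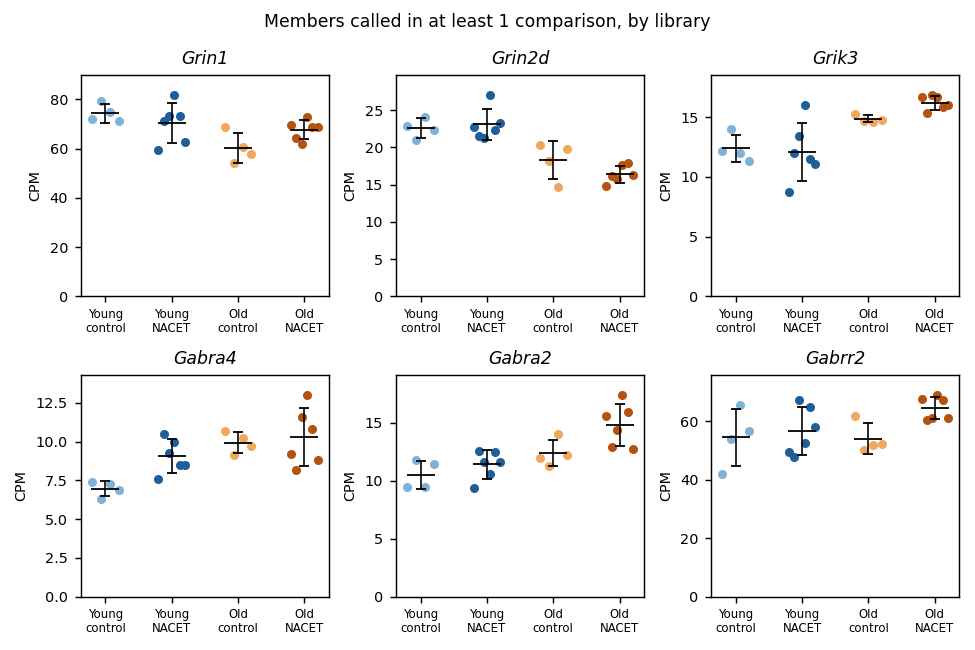
CPM of the 6 members called in at least 1 comparison, with 1 point per library and a line and bar for the mean and SD of each group (n = 4 or 6). Grin2d lies at 14.8 to 17.9 CPM in old NACET mice, below all young mice, and Grin1 has its lowest mean, 60.3 CPM, in old controls.

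The test of whether the change under NACET differed between old and young mice used all 20 libraries. It called 0 of 48 members and 0.0% of the 16993 genes tested. At an unadjusted p under 0.05 there were 3 members (6.25%), beside 6.19% of all genes. DESeq2 also called 0 members, with 3 at an unadjusted p under 0.05. The members' median difference was 0.114 on the log2 scale, beside 0.00653 over all genes, with 37 above and 11 below 0. Grin1 had the smallest p, with a difference of 0.25 (SE 0.09, unadjusted p = 0.00708, edgeR adjusted p = 0.493): its mean was 74.3 CPM in young controls, 70.3 CPM in young NACET, 60.3 CPM in old controls and 67.7 CPM in old NACET mice. Grin3a had a difference of 0.31 (adjusted p = 0.777), and Gabbr2, the signalling subunit of the GABA-B receptor, of 0.23 (adjusted p = 0.819), followed by Glra3 with 0.18 (adjusted p = 0.874). Gabra4 had the smallest p below 0, with -0.33 (SE 0.16, adjusted p = 0.817), followed by Grin2d and Glra2 with -0.19 each, Gabrd with -0.12 and Grik5 with -0.07. All 7 metabotropic receptors were above 0, with a median of 0.15. Beside these values, ganglion cell markers were above 0 in 6 of 7, with a median of 0.18, while pigment epithelium markers were below 0 in 5 of 5 (median -1.71, 4 at an unadjusted p under 0.05), and the 4 tested corneal markers had a median of -8.37, each at an unadjusted p under 0.05. None of these was called, and their part in the members' values was not tested.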

How the data were processed

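Retinal mRNA was measured in 20 mice, grouped by the sample labels. The authors deposited raw counts of reads per gene, without normalization. As the methods state, polyA TruSeq libraries were sequenced single-end on a NextSeq 500, aligned to mm9 with TopHat 2.1.0 and counted over exons with HTSeq-count 0.11.2 without strand. The annotation was not given in the sources used here. Ribosomal RNA genes, removed by the study, were kept. The row that names no gene held 0.000941% to 0.00218% of counts and was left out. Depth was 17.7 to 31.1 M gene counts per library. Intervals are 95% exact intervals, and 3 counts served as the upper limit where none was seen. Both cover counting error only, and reads are not independent molecules.

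The members, gene lists and tests were chosen with earlier results of these data known. For each comparison, only the libraries of the 2 groups entered the fit over all genes, made with edgeR 4.0.16 in R 4.3.3 (default expression filter, TMM, quasi-likelihood test, Benjamini-Hochberg adjustment), with a call at an adjusted p under 0.05. The interaction used all 20 libraries. The self-check on simulated data passed its limits on the size of the recovered change and on the share of false calls. The simulated libraries held no sex, batch or carry-over differences, so it does not test the calls under these. The study used DESeq2, which was run as an alternative in version 1.42.0, beside RLE normalization, other filters, a robust fit, other samples or covariates, a replicate block, and leaving out each library. Restricting to libraries under 100 Xist counts and leaving out old control replicates 2 and 4 were added after seeing the data. Named in each comparison were the called members, the 5 higher and 5 lower members with the smallest p, the leading member of each of 13 families and those never tested. The values of 4 of these are not reported here, though they count in all totals. From the lists, called genes were named where reported, with some of those of smallest p. Nothing in the labels says that samples of a group came from separate cages or litters, so p-values measure the spread between these mice. In 42 pairs of libraries of a group the chi-square per degree of freedom was at least 2.63, so none was counted as a duplicate. Positions and exon lengths are from the GENCODE annotation of mm9, in which all 51 members were found, and upstream sequences from RefSeq (GRCm38.p6).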

Additional observations from a re-analysis of the deposited data

Results flagged for a closer look

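Of 192 sets of values, each of 1 tested member in 1 group, 12 had a library far from the others by Dixon's test at the 95% level, and chance flags about 1 in 20 sets. In young NACET mice, replicate 1 was low for Gria4 at 67.9 CPM (others 84.6 to 93.9) and for Glra2 at 10.8 CPM (others 14.2 to 15.0), and replicate 4 was high for Grin2d at 27.1 CPM (others 21.3 to 23.3) and for Grin2c at 5.05 CPM (others 2.48 to 3.11). In old controls, replicate 1 was high for Glra1 at 14.3 CPM and for Grik4 at 2.88 CPM. Replicate 2, the library with corneal markers, was low for Gabrb1 at 4.44 CPM (others 6.08 to 6.15) and high for Grin3b at 1.67 CPM. In old NACET mice, Gabra3 was high in replicate 4 at 49.4 CPM, Gabrr3 was high in replicate 2 at 15.4 CPM, and Gabrg3 was low in replicate 6 at 14.3 CPM. In young controls, Gabrb1 was high in replicate 2 at 5.76 CPM. None of these sets is of a called member in a comparison it was called in, except Grin2d in young NACET mice, where the call held without replicate 4 (log2 change -0.51, edgeR adjusted p = 0.000208).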

How the results depend on the processing

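Called members in aging controls numbered 2, and 0 with labelled sex as a covariate, in labelled males only, in libraries under 100 Xist counts and without old controls 2 and 4. It was 3 with DESeq2 and in the fit of all 4 groups, which also called Grin2d. Leaving out each library gave 0 to 2. In old mice under NACET the count of 1 fell to 0 with a filter at 1 CPM, in 668-day mice only, with the 668-day cohort as a covariate, in the fit of all 4 groups, under 100 Xist counts and without old controls 2 and 4, and was 0 to 1 leaving out each library. For age under NACET, 3 members were called, 5 with DESeq2, 1 with old NACET mice of 668 days only and 1 to 4 leaving out each library. In young mice under NACET and in the interaction it was 0 under every alternative run. RLE normalization and the robust fit changed no count. Among named members, 2 turned sign, both in young mice under NACET: Gabrb1 (-0.27) was 0.0889 with the batch tag as a covariate, and Glrb (0.11) was -0.0554 in labelled males only and under 100 Xist counts. Without old controls 2 and 4 the median log2 change of the members also turned sign. It went from -0.0241 to 0.0509 in aging controls and from 0.0433 to -0.0135 in old mice under NACET. The causes were not tested.

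Replicate numbers are shared between groups, but the deviations of same-numbered samples correlated at -0.16 to 0.12, so the numbers do not pair the samples. With the replicate number as a block, 0 members were called in aging controls, 0 in old and 0 in young mice under NACET, 2 between the ages given NACET and 0 in the interaction. Not every sample correlated best with its own number.

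Counts of 0 to 16 per library left Gabra6, Gabrp and Gabre untested. The smallest change of a called member was 0.25 on the log2 scale.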
